A study of Mus musculus with 12 samples.

Results

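The uncoupling proteins are the genes Ucp1, Ucp2 and Ucp3, chosen by name and not by a rule on their measured values. Earlier results of these data were known at that choice. All 3 are among the 14159 genes with deposited values. Their mRNA was measured by RNA-seq in whole inguinal white adipose tissue (iWAT), the subcutaneous fat depot of the groin, of C57BL/6 mice. The 12 libraries form 4 groups of 3 biological replicates, numbered 0, 1 and 2 in the labels. Atf4AKO mice carried floxed Atf4 alleles and Adipoq-Cre, a transgene that deletes the floxed alleles in adipocytes of every kind, and Atf4WT mice were their floxed littermates without the deletion. Each genotype was sampled at room temperature (RT) and after 24 h of cold exposure at 5 °C. The age and sex of the sequenced mice are not given in the sources used here.

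Uncoupling proteins are carriers of the inner mitochondrial membrane. UCP1 lets protons return to the matrix without driving ATP synthesis, so that the energy of respiration is released as heat, and it is the defining protein of brown and beige adipocytes. UCP2 is made in many cell types, among them macrophages and lymphocytes, and exports metabolites with few carbon atoms from the matrix. UCP3 is made mostly in skeletal muscle and in brown and beige adipocytes, where it is linked to the handling of fatty acids. In iWAT, cold activates β-adrenergic signaling, which induces Ucp1 through cAMP and a set of transcription factors and coactivators.

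The genes differ in where they lie. Ucp1 (NM_009463) is on chromosome 8 of mm10, at chr8:83290352-83298452 on the plus strand, with 6 exons. Ucp3 (NM_009464) and Ucp2 (NM_011671) are neighbors on the plus strand of chromosome 7, at chr7:100472990-100486432 with 7 exons and at chr7:100493337-100502020 with 8 exons, and 6904 bases separate the end of Ucp3 from the start of Ucp2. Bases before the RefSeq start of each gene, on GRCm38.p6, are shown because the results turn on these 3 genes. They number 250 for Ucp1 and Ucp3 and 229 for Ucp2, whose RefSeq promoter window ran 21 bases past the gene start used here and was ended at it. All 3 members matched an entry. Capitals mark matches on either strand. The motif searched as a TATA box was TATANA. For the core of a cAMP response element it was TGACG, and for the half-site of nuclear receptors it was AGGTCA. The element shared by C/EBP and ATF proteins was written as TGATGNAA, and the GC box as GGGCGG.
Ucp1 (chr8:83290098-83290347, plus strand): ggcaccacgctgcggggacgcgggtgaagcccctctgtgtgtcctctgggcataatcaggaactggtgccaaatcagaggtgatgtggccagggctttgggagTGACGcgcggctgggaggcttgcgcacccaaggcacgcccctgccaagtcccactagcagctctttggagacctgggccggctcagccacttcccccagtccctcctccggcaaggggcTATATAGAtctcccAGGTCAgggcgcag
Ucp2 (chr7:100493108-100493336, plus strand): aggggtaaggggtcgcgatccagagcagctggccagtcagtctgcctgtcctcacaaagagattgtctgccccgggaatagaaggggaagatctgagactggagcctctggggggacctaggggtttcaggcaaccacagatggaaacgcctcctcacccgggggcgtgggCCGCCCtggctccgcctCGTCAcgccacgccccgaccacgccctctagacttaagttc
Ucp3 (chr7:100472741-100472990, plus strand): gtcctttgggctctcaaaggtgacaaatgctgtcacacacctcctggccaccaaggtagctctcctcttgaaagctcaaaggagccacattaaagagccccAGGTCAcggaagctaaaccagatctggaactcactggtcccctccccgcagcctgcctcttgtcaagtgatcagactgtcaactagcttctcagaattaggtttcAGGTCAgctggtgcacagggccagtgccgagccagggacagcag

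In the Ucp1 window, matches to the TATA box that overlap each other lay 28 to 21 bases before the start, the nuclear receptor half-site lay 14 to 9 bases before it and the cAMP response core 147 to 143 bases before it. The Ucp2 window held the GC box on the minus strand 58 to 53 bases before the start and the cAMP response core on the minus strand 41 to 37 bases before it, and no match to the TATA box. The Ucp3 window held the nuclear receptor half-site at 149 to 144 and at 44 to 39 bases before the start. None of these windows held the C/EBP-ATF element. Of 32851 promoters searched in the same way over 250 bases, 22.6% held the TATA box, 17.8% the cAMP response core, 14.0% the nuclear receptor half-site, 3.45% the C/EBP-ATF element and 32.7% the GC box. The share of G and C was 64.8% for Ucp1, 63.3% for Ucp2 and 54.8% for Ucp3, and the median of all promoters was 52.4%. CG dinucleotides numbered 12, 13 and 3 in the same order, and the median was 6. These matches describe the letters of the windows and are no measurement of binding.

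The libraries held 25719476 to 29105147 reads on listed genes, and the values are normalized counts, the reads divided by the size factor of each library. Atf4, the deleted gene, was at 5669, 4670.3 and 4107 normalized counts in the Atf4WT libraries at RT and at 1594, 1469.7 and 1639 in the Atf4AKO libraries at RT. After cold it was at 7644, 7511 and 5756 in Atf4WT and at 1578, 788 and 1179.8 in Atf4AKO iWAT, so that the genotypes did not overlap at either temperature. The log2 fold change of Atf4 between the genotypes was −2.60 after cold (adjusted p = 0.000644, limma) and −1.61 at RT (adjusted p = 0.0762). Which part of Atf4 is floxed is not given in the sources used here. Adipocyte markers were high in every library, with Adipoq (adiponectin) at 55499.7 to 108458 and Plin1 (perilipin 1) at 39417 to 59306 normalized counts. Of the markers of classical brown adipocytes, Zic1 is not among the listed genes and Lhx8 was at 72.3 to 140.4.

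Some libraries stood apart by markers of other cells. The summed normalized count of 18 of 20 B and T cell markers was 4549 to 19169 in Atf4WT iWAT after cold and 239 to 719 in Atf4AKO iWAT after cold. At RT it was 270.4 to 4374 in Atf4WT, where replicate 2 was the high library, and 359 to 910.1 in Atf4AKO iWAT. The sum of 3 of 5 lymph node stroma markers was 607 to 1623 in Atf4WT and 107 to 422 in Atf4AKO iWAT after cold. At RT that sum was 154 to 451 in Atf4WT and 126 to 528 in Atf4AKO iWAT. Whether the samples held lymph node tissue was not tested. The sum of 9 of 14 skeletal muscle markers was 136056 in Atf4WT replicate 2 at RT, 45379 in Atf4WT replicate 0 after cold and 4844 in Atf4AKO replicate 1 after cold, and at most 929.6 in the other libraries. The sum of 11 of 12 macrophage markers was 6244 in Atf4AKO replicate 1 and 15066 in Atf4WT replicate 1, both after cold, and 27292 to 50611 elsewhere. No listed gene was without reads in any library, so that no listed marker was at 0. In whole tissue, fewer cells of a type and less RNA per cell cannot be told apart.

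**Figure D1:**
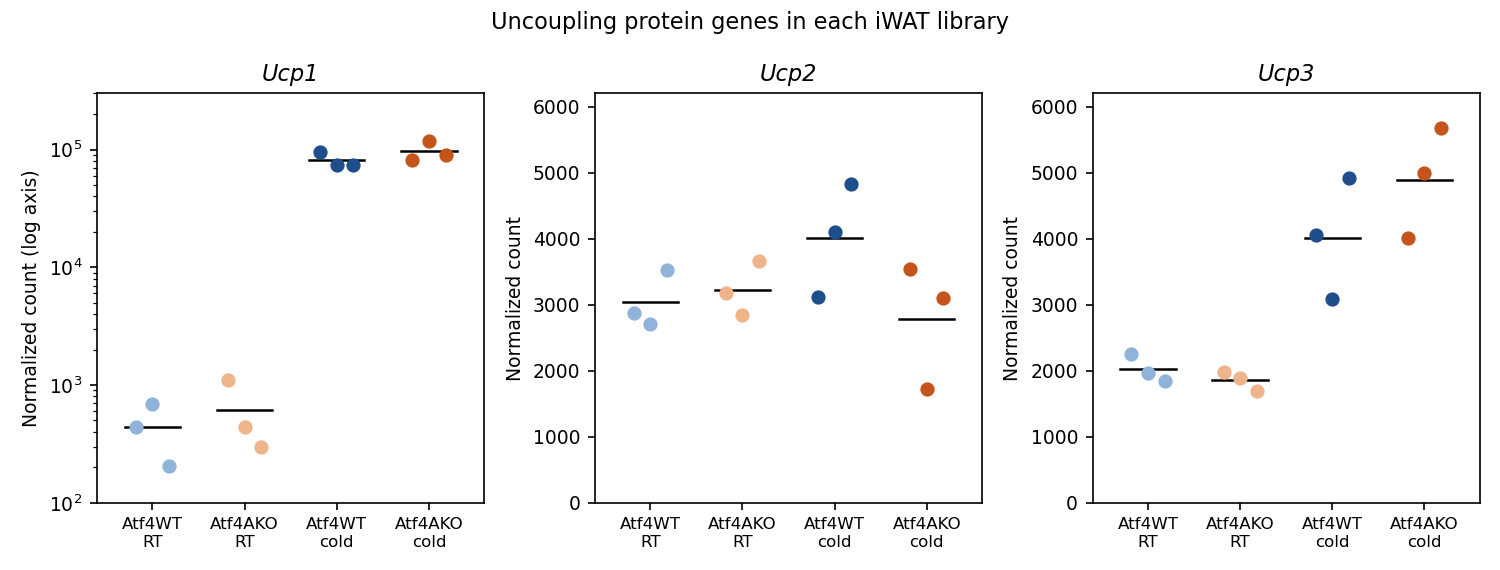
Normalized counts of Ucp1 (log axis), Ucp2 and Ucp3 (linear axes from 0) in the 12 libraries. Each point is a library, replicates 0 to 2 from left to right, and each bar is the mean of 3. Ucp1 and Ucp3 are above every RT library of the same genotype in all cold libraries, whereas the Ucp2 values of cold and RT libraries overlap.

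Ucp1 rose more than 100-fold with cold in both genotypes. Its normalized counts at RT were 439, 685 and 204 in Atf4WT and 1097, 441 and 298 in Atf4AKO iWAT. After cold they were 94771, 73632 and 74684 in Atf4WT and 81033, 119558 and 90868 in Atf4AKO iWAT. Each cold library was therefore far above each RT library, and the genotypes overlapped at both temperatures. The spread between replicates was wider at RT, with a coefficient of variation of 54.3% in Atf4WT and 69.6% in Atf4AKO iWAT, than after cold, with 14.7% and 20.6%. The fewest reads behind a Ucp1 value were 220, at RT, and the most were 105454, after cold.

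The log2 fold change of Ucp1 with cold was 7.67 ± 0.47 (SE) in Atf4WT iWAT, which is 203-fold (adjusted p = 1.32e-05, limma with Benjamini-Hochberg adjustment over 13404 genes). In Atf4AKO iWAT it was 7.51 ± 0.47, or 182-fold (adjusted p = 8.69e-06, limma). In each genotype only 2 of the 13404 tested genes had a higher fold change. With a score of lymphocyte markers as a covariate, the log2 fold change in Atf4WT was 8.74. Over the alternatives tried the adjusted p-value was at most 0.000286 in Atf4WT and 0.000438 in Atf4AKO iWAT.

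Between the genotypes, no difference in Ucp1 passed the test. After cold the log2 fold change of Atf4AKO against Atf4WT was 0.25 with a 95% confidence interval of −0.78 to 1.29 (adjusted p = 0.876, limma). At RT it was 0.41 with an interval of −0.63 to 1.44 (adjusted p = 0.99988, limma). The cold response of Ucp1 in Atf4AKO minus that in Atf4WT was −0.16 on the log2 scale, with an interval of −1.62 to 1.31 (adjusted p = 0.999, limma). These intervals are wide, and they rest on a spread shared by all 4 groups, including the wider spread at RT. In a model of only the cold groups, the SE of the difference after cold was 0.20 instead of 0.47. That difference did not pass there either (adjusted p = 0.705, limma).

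Ucp3 also rose with cold in both genotypes, by much less than Ucp1. At RT it was at 2253, 1960.3 and 1848 normalized counts in Atf4WT and at 1985, 1889 and 1688 in Atf4AKO iWAT. After cold the values were 4049, 3084 and 4913 in Atf4WT and 4005, 5002 and 5671 in Atf4AKO iWAT. The lowest cold library of either genotype was above the highest RT library. At RT the replicates were close, with a coefficient of variation of 10.3% and 8.15%, and after cold it was 22.8% in Atf4WT and 17.1% in Atf4AKO iWAT.

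With cold, the log2 fold change of Ucp3 was 0.97 ± 0.17 in Atf4WT iWAT, or 1.96-fold (95% confidence interval 0.60 to 1.34, adjusted p = 0.00188, limma). It was 1.39 ± 0.17 in Atf4AKO iWAT, or 2.62-fold (interval 1.02 to 1.76, adjusted p = 0.000341, limma). Among 13404 genes ordered from the highest fold change, Ucp3 was number 828 in Atf4WT and number 167 in Atf4AKO iWAT. Thus Ucp1 and Ucp3, 2 of the 3 members, were called higher after cold in each genotype, where 17.0% of all tested genes were called higher in Atf4WT and 14.8% in Atf4AKO iWAT. The same 2 members had all cold libraries above all RT libraries, as did 23.9% of the tested genes in Atf4WT and 21.7% in Atf4AKO iWAT.

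The higher cold response of Ucp3 in Atf4AKO iWAT did not pass the test of the difference, which was 0.42 on the log2 scale (interval −0.10 to 0.94, adjusted p = 0.868, limma). After cold, Ucp3 in Atf4AKO against Atf4WT had a log2 fold change of 0.30 (interval −0.07 to 0.67, adjusted p = 0.541, limma), and the libraries overlapped. Without Atf4WT replicate 1 after cold it was 0.12. With the lymphocyte score, which did not overlap between the genotypes after cold, as a covariate it was 0.064. At RT it was −0.12 (interval −0.49 to 0.25, adjusted p = 0.99988, limma). Skeletal muscle is a tissue where Ucp3 is normally high. Atf4WT replicate 2 at RT, with the highest sum of muscle markers, had the lowest Ucp3 of its group. The libraries next by that sum, Atf4WT replicate 0 and Atf4AKO replicate 1 after cold, each had the middle Ucp3 value of their group. The part of muscle in the Ucp3 values was not tested. With the 3 libraries richest in muscle markers left out, a choice made after seeing the data, the cold response of Ucp3 was 0.89 in Atf4WT (adjusted p = 0.0204, limma) and 1.36 in Atf4AKO iWAT (adjusted p = 0.00452, limma).

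Ucp2 did not pass the test in any comparison. Its normalized counts at RT were 2877, 2703 and 3528 in Atf4WT and 3179, 2844 and 3666 in Atf4AKO iWAT. After cold they were 3121, 4103 and 4824 in Atf4WT and 3534, 1727 and 3096 in Atf4AKO iWAT. The highest and the lowest of the 12 values were thus both in cold libraries, the highest in Atf4WT and the lowest in Atf4AKO iWAT, and the groups overlapped in every comparison.

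The log2 fold change of Ucp2 with cold was 0.39 in Atf4WT (interval −0.15 to 0.93, adjusted p = 0.245, limma) and −0.27 in Atf4AKO iWAT (interval −0.81 to 0.27, adjusted p = 0.439, limma). After cold, Ucp2 in Atf4AKO was 0.674 times its level in Atf4WT iWAT, a log2 fold change of −0.57 (interval −1.11 to −0.03). The unadjusted p-value was 0.0396 and the adjusted p-value 0.384 (limma). Of all tested genes, 7.98% were lower in Atf4AKO iWAT with an unadjusted p-value under 0.05. Without Atf4AKO replicate 1 the difference was −0.26. The cold responses of Ucp2 differed by −0.66 between the genotypes (interval −1.42 to 0.10, adjusted p = 0.815, limma), and at RT the genotypes differed by 0.09 (interval −0.45 to 0.63). With the 3 libraries richest in muscle markers left out, the cold response of Ucp2 in Atf4WT iWAT was 0.67 and passed the test (adjusted p = 0.00948, limma), which it did under none of the other alternatives run.

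None of the 3 members was called between the genotypes or in the difference of the cold responses. The same test called 0.0298% of all genes between the genotypes after cold, 0.00746% at RT and 0.0% for the difference of the cold responses. In the last comparison limma gave 239 genes with a positive and 689 with a negative difference at an unadjusted p-value under 0.05, edgeR called 0 genes and DESeq2 called 138 at an adjusted p-value under 0.05.

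**Figure D2:**
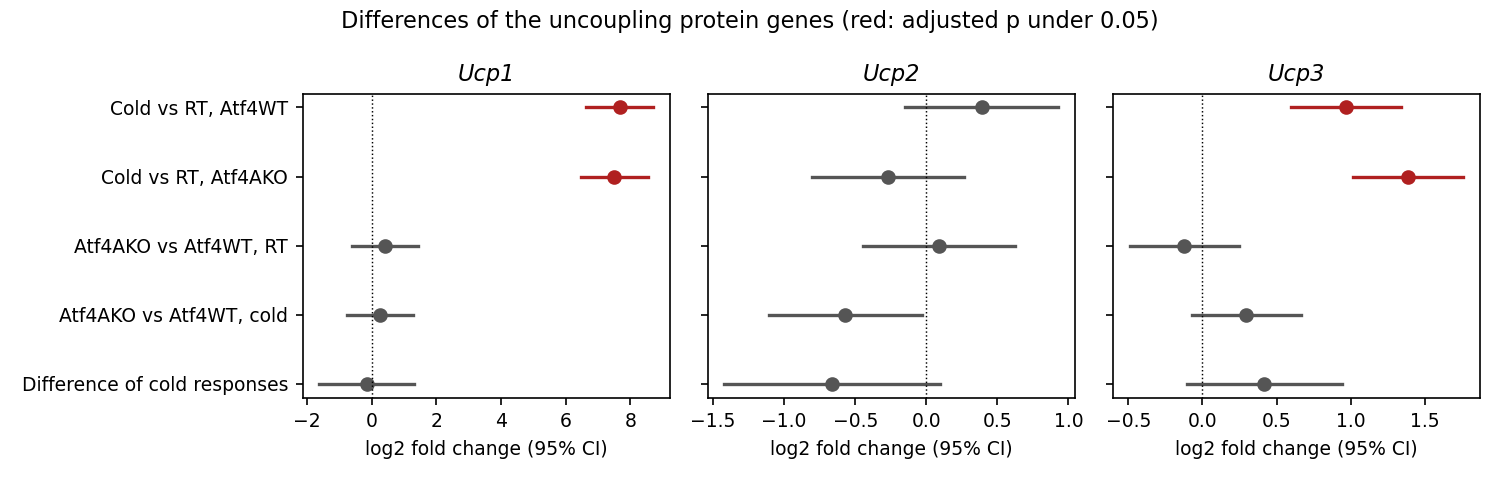
Log2 fold changes of Ucp1, Ucp2 and Ucp3 in 5 comparisons, with 95% confidence intervals from limma. The horizontal axes differ between the panels, and red marks an adjusted p-value under 0.05. The cold responses of Ucp1 and Ucp3 are the values that passed.

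The values of Ucp2 are shown beside markers of leukocytes, which express it. Ucp2 was lowest, at 1727, in Atf4AKO replicate 1 after cold, where the macrophage markers were lowest (6244), with Csf1r, the receptor for macrophage colony-stimulating factor, at 603 and Lyz2, lysozyme, at 1985. The other library with few macrophage markers, Atf4WT replicate 1 after cold (15066, with Csf1r at 1202), had Ucp2 at 4103 and B and T cell markers at 12904.5. Ucp2 was highest, at 4824, in Atf4WT replicate 2 after cold, where the B and T cell markers were highest (19169) and the macrophage markers were at 38340.5. Other libraries went the other way. Atf4AKO replicate 0 at RT, with the most macrophage markers (50611), had Ucp2 at 3179. After cold, Atf4WT replicate 0, with B and T cell markers at 4549, had Ucp2 at 3121. In Atf4AKO replicate 0 after cold, with those markers at 719, Ucp2 was at 3534. With the score of these lymphocyte markers as a covariate, the difference of Ucp2 between the genotypes after cold became 0.33 (adjusted p = 0.999, limma). After cold that score was 7.30 to 9.75 in Atf4WT and 3.42 to 4.95 in Atf4AKO iWAT, so that the fit can hardly separate it from genotype. With the 2 cold libraries lowest in macrophage markers left out, the difference was −0.23 (adjusted p = 0.917, limma). The part of leukocytes in the Ucp2 values was not tested.

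**Figure D3:**
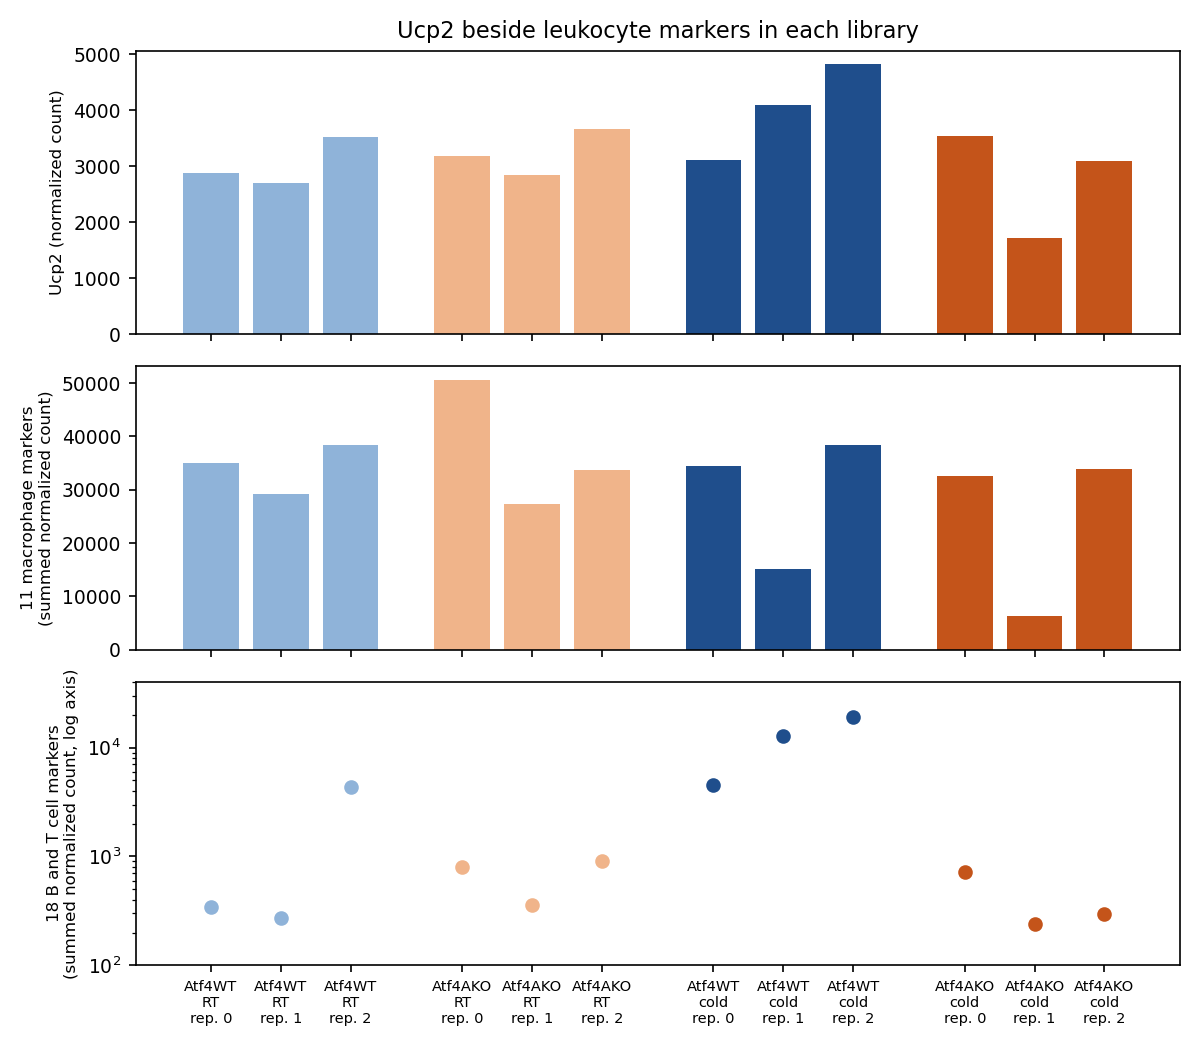
Ucp2 (top), the sum of 11 macrophage markers (middle) and the sum of 18 B and T cell markers (bottom, log axis), all in normalized counts, in each of the 12 libraries. The lowest Ucp2 value, 1727, is in the library with the lowest macrophage sum, 6244, and the highest Ucp2 value, 4824, is in the library with the highest lymphocyte sum, 19169. The library with the highest macrophage sum, 50611, has Ucp2 at 3179.

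For each member, the 5 genes whose log2 levels over the 12 libraries were most like its own were taken. Pearson's r is given as a description, since the libraries share 4 groups and the highest values were picked from all tested genes. For Ucp1 they were Elovl3 (r = 0.993), an elongase of very long fatty acids, Qrsl1 (0.992) of mitochondrial glutamine tRNA synthesis, Ndufaf4 (0.992), an assembly factor of complex I, Plbd1 (0.991) and Cycs (0.991), cytochrome c. A gene picked in this way had to follow the cold response of Ucp1, so that the values are a description. Elovl3 went from 4.64 to 32.7 normalized counts in Atf4WT libraries at RT to 2472 to 4557 after cold.

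For Ucp3 the most similar genes were Tfdp1 (r = 0.984), the dimerization partner of E2F factors, Pdss1 (0.981) of coenzyme Q synthesis, Eif5 (0.981), a translation initiation factor, Dnm1l (0.981), the GTPase of mitochondrial fission, and Atp2a2 (0.979), the calcium pump SERCA2. Their cold response too was fixed by the choice, and Dnm1l had log2 fold changes of 0.34 in Atf4WT and 0.48 in Atf4AKO iWAT and Atp2a2 of 0.64 and 0.78.

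For Ucp2 they were Ptpn7 (r = 0.972), a tyrosine phosphatase of blood cells, Fgd3 (0.970), AI467606 (0.963), Lcp1 (0.963), the plastin of leukocytes, and Cd48 (0.963), a surface protein of leukocytes. After cold, Ptpn7 was at 151 to 359 normalized counts in Atf4WT and at 23.8 to 126 in Atf4AKO iWAT. Once the group means were removed, so that only the spread within groups was compared, Ptpn7 (0.993) and Fgd3 (0.991) were again nearest to Ucp2, followed by Tspan32 (0.980), Lsp1 (0.978) and AI467606 (0.977). In the same comparison within groups, Gja1 (0.949), connexin 43, was nearest to Ucp1, and Pnpt1 (0.972), a mitochondrial nuclease, was nearest to Ucp3.

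Levels of different genes were compared per kb of merged exons. At RT in Atf4WT iWAT, Ucp3 was at 644 ± 66.7 (SD, n = 3) normalized counts per kb, Ucp2 at 434 ± 62.2 and Ucp1 at 271 ± 147. At RT in Atf4AKO iWAT, they were at 591 ± 48.2, 462 ± 59.2 and 374 ± 260.4 in the same order. After cold Ucp1 was at 49529 ± 7282 in Atf4WT and 59384 ± 12235 in Atf4AKO iWAT, Ucp3 at 1281 ± 292 and 1561 ± 267, and Ucp2 at 575 ± 122 and 399 ± 135. In the order of group means per kb, Ucp1 after cold in Atf4AKO and Atf4WT iWAT came first and Ucp3 after cold in Atf4AKO and Atf4WT iWAT next, and in both pairs the genotypes differed by less than the larger SD. Below them came Ucp3 at RT, then Ucp2 in the order Atf4WT after cold, Atf4AKO at RT, Atf4WT at RT and Atf4AKO after cold, and last Ucp1 at RT, and each of these means differed from the next by less than the larger SD.

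Among 13962 genes ranked per kb, Ucp1 was number 7 to 12 in each of the cold libraries and number 1915 to 6738 at RT. Ucp3 was number 778 to 1331 after cold and 1762 to 2239 at RT, and Ucp2 was number 1774 to 4546 over all libraries. The place of Ucp2 in the order above and in these ranks depends on the length used. With its shortest length, Ucp2 at RT was above Ucp3 in both genotypes. After cold in Atf4WT iWAT, Ucp2 then made up 4.80% ± 1.45 (SD) of the 3 genes' sum per kb and Ucp3 3.08% ± 0.768. In Atf4AKO iWAT after cold these were 2.94% ± 1.39 and 3.21% ± 0.609. With the annotated transcripts, Ucp2 and Ucp3 at RT had 41.2% ± 7.80 and 44.4% ± 3.30 in Atf4WT. In Atf4AKO iWAT at RT they had 42.3% ± 8.30 and 39.4% ± 4.26. The merged exons of Ucp2 add to 6989 bases, its annotated transcript to 3988 bases and the part of that transcript up to the RefSeq gene end to 1597 bases. Those of Ucp1 are 1636 bases throughout, and those of Ucp3 are 3135 merged and 2448 in the transcript.

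**Figure D4:**
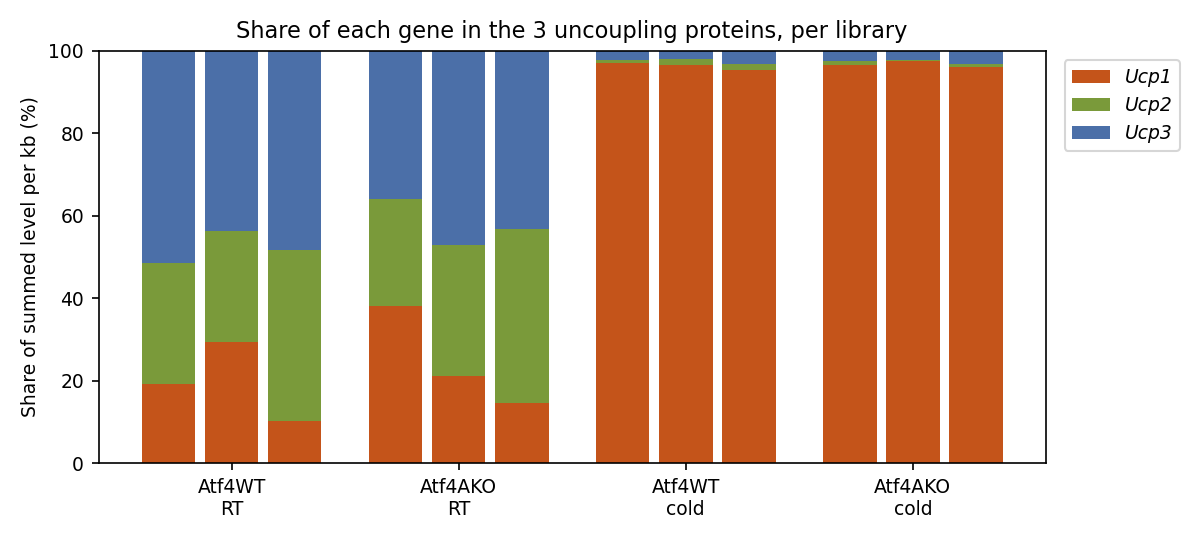
Share of Ucp1, Ucp2 and Ucp3 in their summed normalized count per kb of merged exons, in percent, in each of the 12 libraries (1 bar each, replicates 0 to 2 from left to right). Ucp1 fills 10.2 to 38.1% of the bar at RT and 95.3 to 97.5% after cold.

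The makeup of the family differed between RT and cold libraries. Of the summed level per kb of the 3 genes, Ucp1 made up 19.6% ± 9.53 (SD, n = 3) in Atf4WT and 24.6% ± 12.1 in Atf4AKO iWAT at RT, and 96.3% ± 0.935 and 96.7% ± 0.739 after cold. Ucp3 made up 47.8% ± 3.87 at RT and 2.52% ± 0.655 after cold in Atf4WT and 42.1% ± 5.64 and 2.58% ± 0.507 in Atf4AKO iWAT, although its own level rose. Ucp2 made up 32.6% ± 7.71 at RT and 1.15% ± 0.359 after cold in Atf4WT and 33.3% ± 8.23 and 0.694% ± 0.334 in Atf4AKO iWAT. The RT and cold libraries did not overlap for any member (p = 0.1 each, two-sided exact permutation test of 3 against 3, the smallest value this design allows). The shares of a library add to the whole, so that the falls of Ucp2 and Ucp3 followed from the much larger rise of Ucp1. They are not separate results. Between the genotypes the share of Ucp1 differed by 5.05 percentage points at RT (p = 0.6, exact permutation test) and by 0.389 after cold (p = 0.7, exact permutation test). The RT shares depend on the lengths used. With the shortest length of Ucp2, a choice made after seeing the data, Ucp2 was the largest part at RT. It then had 63.3% ± 7.20 in Atf4WT and 64.3% ± 7.64 in Atf4AKO iWAT. With that length Ucp1 made up less at RT, 9.13% in Atf4WT and 11.5% in Atf4AKO iWAT, and still 92.1% and 93.9% after cold. With the annotated transcripts, the RT share of Ucp1 was 14.4% in Atf4WT and 18.3% in Atf4AKO iWAT.

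Genes around the uncoupling proteins were read as lists. The lists were chosen with earlier results of these data known. Their counts beside the shares of all tested genes are therefore a description. Of 22 transcription factors and coactivators that induce Ucp1, 7 rose and 2 fell with cold in Atf4WT and 10 rose and 2 fell in Atf4AKO iWAT. Of all tested genes, 17.0% rose and 14.9% fell in Atf4WT, and 14.8% rose and 11.0% fell in Atf4AKO iWAT. The median log2 fold changes were 0.14 and 0.24, beside 0.0026 and −0.032 for all tested genes. Ppargc1a, the PGC-1α coactivator, rose by 2.01 and 2.57, Ppargc1b by 1.62 and 2.15, Esrra by 1.27 and 1.23, Esrrg by 2.02 and 2.57 and Ppara by 1.27 and 1.74 in Atf4WT and Atf4AKO iWAT. Thra, a thyroid hormone receptor, fell by 0.69 and 0.53, and Rxra, the partner of nuclear receptors, fell by 0.50 and 0.46. Prdm16, a coregulator of beige fate, had −0.01 (adjusted p = 0.966, limma) and 0.27 (adjusted p = 0.213).

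Of 7 repressors of Ucp1, 5 fell and 1 rose in Atf4WT and 3 fell and 1 rose in Atf4AKO iWAT, with medians of −0.53 and −0.22. The shares of all tested genes that fell were 14.9% and 11.0%. Zfp423, which holds adipocytes in the white state, fell by 0.97 and 0.48, Rbl1 (p107) by 0.74 and 0.70 and Twist1 by 0.53 and 0.35. Nrip1 (RIP140), a corepressor of metabolic genes, fell by 0.86 in Atf4WT (adjusted p = 0.0177, limma) and had −0.22 in Atf4AKO iWAT (adjusted p = 0.515). After cold it differed by 0.77 between the genotypes (adjusted p = 0.167, limma), which did not pass. Nr1h3 (LXRα) rose by 0.45 and 0.47.

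Of 11 genes of adrenergic input, 3 rose and 1 fell in Atf4WT and 4 rose in Atf4AKO iWAT, with medians of 0.18 and 0.28. Of all tested genes, 17.0% rose and 14.9% fell in Atf4WT iWAT. With 11 genes, the counts in Atf4WT are near these shares. In Atf4AKO iWAT 14.8% of all tested genes rose, and whether the list exceeded that share was not tested. Dio2, which activates thyroid hormone, rose by 5.88 in Atf4WT iWAT and also passed the test in Atf4AKO iWAT, and Adcy3, an adenylate cyclase, rose by 1.87 and 2.30. Adrb3, the β3-adrenergic receptor of adipocytes, fell by 1.04 in Atf4WT (adjusted p = 0.0163, limma) and had −0.76 in Atf4AKO iWAT (adjusted p = 0.0665).

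Fatty acids both fuel and activate UCP1, and 6 of 15 genes of their supply rose in each genotype, while 1 fell in Atf4WT, with medians of 0.48 and 0.53, where 17.0% and 14.8% of all tested genes rose and 14.9% fell in Atf4WT iWAT. Slc25a20, the carnitine carrier, rose by 1.78 and 1.95, Plin5, a lipid droplet protein at mitochondria, by 2.25 and 2.23, and Cpt1b, the muscle form of carnitine palmitoyltransferase, by 2.91 and 3.79. Fabp3, a fatty acid binding protein also made in muscle, rose by 7.92 and 9.61. Its normalized counts at RT were low, at 7.35, 9.62 and 105.7 in Atf4WT and 4.65 to 7.97 in Atf4AKO iWAT. The value of 105.7 was in Atf4WT replicate 2, the library with the highest sum of muscle markers. Cpt1a, the liver form of carnitine palmitoyltransferase, fell by 0.41 in Atf4WT iWAT.

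Another list held the carriers closest to the uncoupling proteins in sequence and the ADP/ATP carriers. Of 7 tested, 2 rose in Atf4WT and 3 in Atf4AKO iWAT, and none fell, with medians of 0.23 and 0.45. With 7 genes, the count in Atf4WT is near the 17.0% of all tested genes that rose, and in Atf4AKO iWAT that share was 14.8%. Slc25a5 (ANT2), an ADP/ATP carrier that also leaks protons, rose by 0.62 and 0.72, and Slc25a11, the oxoglutarate carrier, by 0.64 and 0.71. Slc25a4 (ANT1) rose by 0.45 in Atf4AKO iWAT. Slc25a27, also called UCP4, was at 124 normalized counts on average in Atf4WT iWAT after cold and had 0.59 with cold (adjusted p = 0.123, limma), and Slc25a14, also called UCP5, had −0.16 (adjusted p = 0.468). None of the genes in these lists passed the test between the genotypes at either temperature or in the difference of the cold responses.

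**Figure D5:**
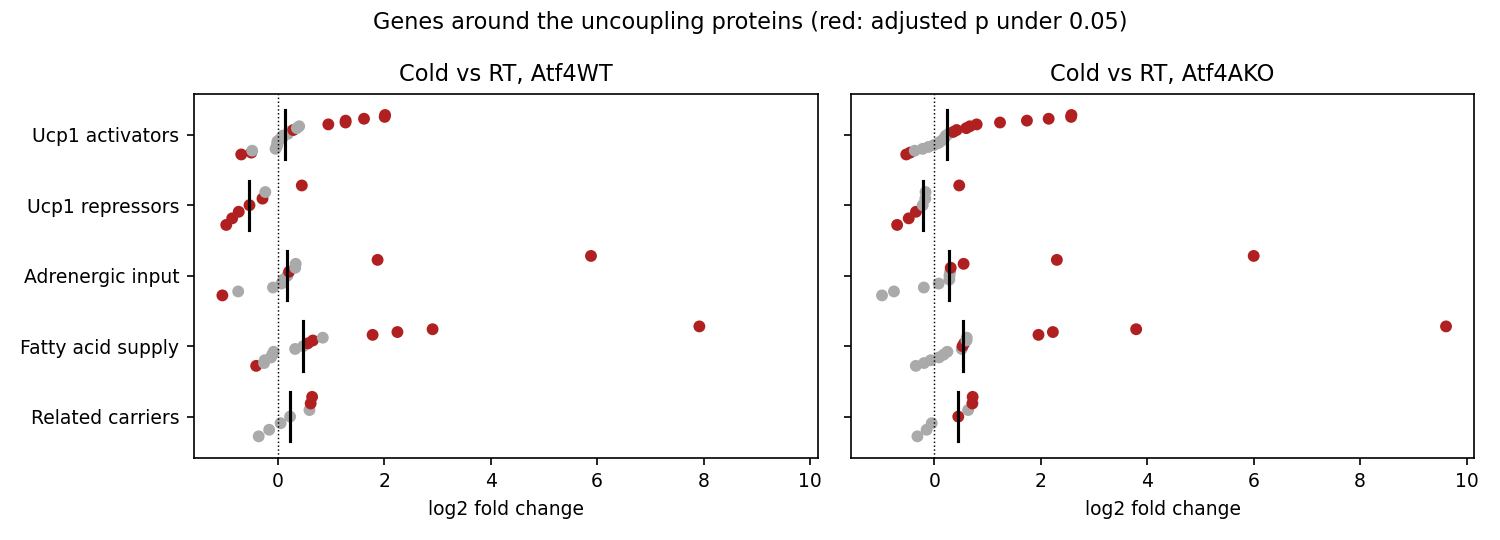
Log2 fold changes with cold of the tested genes in 5 lists around the uncoupling proteins, in Atf4WT (left) and Atf4AKO (right) iWAT. Each point is a gene, red marks an adjusted p-value under 0.05 and the vertical bars are list medians, which lie between −0.53 (repressors) and 0.48 (fatty acid supply) in Atf4WT iWAT.

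Of 9 markers of beige and brown thermogenic adipocytes other than Ucp1, 5 rose in each genotype, with medians of 1.48 and 1.41 and beside 17.0% and 14.8% of all tested genes, namely Cidea, Cox7a1, Cox8b, Elovl3 and Otop1. Cidea, a lipid droplet protein, rose by 2.16 in both genotypes. Tmem26, Tbx1, Cited1 and Tnfrsf9, which mark beige precursors or beige cells, did not pass the test in either genotype.

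The nearest listed genes on each side of the members were read as well. Elmod2, 14179 bases after Ucp1, had log2 fold changes with cold of −0.05 in Atf4WT (adjusted p = 0.796, limma) and 0.24 in Atf4AKO iWAT (adjusted p = 0.192), and Tbc1d9, 17417 bases before Ucp1, had 0.26 (adjusted p = 0.471) and −0.31 (adjusted p = 0.400). C2cd3, 2837 bases before Ucp3, fell by 0.44 in Atf4WT (adjusted p = 0.0195, limma) and by 0.59 in Atf4AKO iWAT (adjusted p = 0.00559). Coa4, 35050 bases after Ucp2, had 0.29 (adjusted p = 0.247, limma) and 0.35 (adjusted p = 0.180).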

How the data were processed

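Whole iWAT of Atf4WT and Atf4AKO mice at RT and after 24 h of cold was used for strand-specific mRNA libraries, 3 biological replicates in each of 4 groups. The authors cleaned the reads with SOAPnuke, aligned them to mm10 in STAR, assigned unique reads to genes through featureCounts and scaled them by pyDESeq2. Tool versions and the strand setting of the counting are not given in the sources used here. The deposited values are a normalized signal: a gene's reads over the size factor of its library. Whole reads were recovered by dividing each library by its smallest value, and none deviated by more than 0.000313. All 12 columns were used.

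The test was limma 3.58.1 (eBayes with a trend, R 4.3.3) on log2(normalized count + 1), which understates changes of low genes. A mean of 10 normalized counts or more was required, which kept 13404 genes and dropped 755. Group means of the 4 groups were fitted, and p-values were adjusted over all tested genes. The study's methods name the DESeq2 algorithm, and a test on normalized values was taken here. edgeR 4.0.16 (quasi-likelihood) and DESeq2 1.42.0 on the recovered reads were alternatives. The others were pseudocounts of 0.5 and 5, other filters, a model of only the groups compared, the same 75th percentile, limma's sample weights, a block for the replicate number, a lymphocyte score (mean log2 value of B and T cell markers) as a covariate, and leaving out libraries. Lengths came from GENCODE, where 13962 listed genes had a unique symbol. The steps were tested on simulated data. Python 3.11.15 and scipy 1.17.1 gave the exact permutation tests.

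The genes named are the members, Atf4, the genes of the lists, the 5 genes most similar to each member by level and by deviation from group means, and the nearest listed genes. Members and lists were chosen with earlier results of these data known. Protein sequences were not used here.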

Additional observations from a re-analysis of the deposited data

How the results depend on the processing

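The cold responses of Ucp1 and Ucp3 kept their direction and passed the test under every alternative run, at log2 values of 7.08 to 8.74 (Ucp1) and 0.81 to 1.16 (Ucp3) in Atf4WT and 7.10 to 8.04 and 1.27 to 1.53 in Atf4AKO iWAT. With the lymphocyte score as a covariate, values that passed no test changed sign. Ucp2 with cold in Atf4WT went to −0.34, and Ucp1 and Ucp2 between the genotypes after cold went to −1.07 and 0.33. The difference of the Ucp2 cold responses went to 0.19. That score did not overlap between the genotypes after cold, nor between RT and cold in Atf4WT iWAT. These fits can therefore hardly separate it from the groups compared. With the 3 libraries richest in muscle markers left out, the cold response of Ucp2 in Atf4WT passed at 0.67 (these and the next were chosen after seeing the data), and that of Ucp2 in Atf4AKO, Ucp1 between the genotypes at RT and the difference of the Ucp1 cold responses changed sign to 0.042, −0.065 and 0.28. Without the 2 cold libraries lowest in macrophage markers the cold response of Ucp2 in Atf4AKO was 0.042. The cause was not tested.

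Leaving out 1 library at a time changed the sign of further values that had not passed. The ranges were −0.47 to 0.042 for Ucp2 with cold in Atf4AKO, −0.12 to 0.82 for Ucp1 and −0.0044 to 0.20 for Ucp2 between the genotypes at RT, and −0.56 to 0.37 for the difference of the Ucp1 cold responses. For the shares they were, in percentage points between the genotypes, −0.134 to 0.765 (Ucp1) and −0.206 to 0.445 (Ucp3) after cold and −1.71 to 10.04 (Ucp1) and −3.78 to 5.04 (Ucp2) at RT.

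Same-numbered libraries deviated from their group means with correlations of −0.19 to 0.39. These were 0.18 to 0.39 for replicate 1 and of both signs for replicates 0 and 2. Libraries with different numbers were not compared in this way, so that the values cannot settle whether the numbers pair the libraries. With the replicate number as a block, the cold response of Ucp2 in Atf4WT was 0.39 (adjusted p = 0.159, limma), and no call of a member changed. The count of all genes called between the genotypes after cold was 4 with limma, 3 with edgeR, 189 with the block and 600 with DESeq2. Reads limited no member, as the lowest value rested on 220 reads. The spread between replicates, shared over the 4 groups in the main model, set the intervals.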
